A study of Rattus norvegicus with 20 samples.

Results

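Jaundiced Gunn rat pups given phototherapy were set against non-jaundiced pups given the same light, in the hippocampus, by polyA RNA sequencing at postnatal day 6. The jaundiced pups (treated jj) are homozygous for the Gunn mutation, and their non-jaundiced counterparts (treated Nj) are heterozygous, so both groups carry the mutant allele of the same strain. Both groups had intermittent LED light from day 4 for 12 h in all, in cycles of 3 h on and 3 h off. The comparison takes the 5 treated jj and 5 treated Nj libraries, which is 10 of the 20 libraries in the series. All genes that passed a filter on low counts were tested, 15272 of the 32883 listed. The other 10 libraries come from untreated pups of the same age, 5 untreated jj and 5 untreated Nj, and give a second look at the genotype from other pups. Among the untreated libraries the title prefix, whose meaning is not given, separates jj from Nj, while all treated libraries share a prefix, so genotype and prefix cannot be told apart in any comparison of untreated pups below. Each library was made from the RNA of a single hippocampal lobe. In such bulk samples, fewer cells of a type and less RNA per cell cannot be told apart.

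Bilirubin is the end product of heme breakdown. Heme oxygenase opens the heme ring, biliverdin reductase makes bilirubin, and the liver enzyme UGT1A1 attaches glucuronic acid so that bilirubin can leave in bile. Homozygous Gunn rats lack working UGT1A enzymes and accumulate unconjugated bilirubin, which can enter the newborn brain and harm neurons, with the auditory brainstem, basal ganglia, cerebellum and hippocampus among its known targets. Phototherapy turns bilirubin in the skin into isomers that can be excreted without conjugation, and is the standard treatment of neonatal jaundice. The comparison therefore asks how far the hippocampal transcriptome of jaundiced pups differs from that of non-jaundiced pups when both are under light.

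The libraries held 19301732 to 25711587 counts in treated jj pups and 19481780 to 23070996 counts in treated Nj pups. Mitochondrial transcripts took 3.96 to 4.29% of the counts in treated jj pups and 4.00 to 4.40% in treated Nj pups. Tissue content was uneven. Ttr, the transthyretin gene that marks choroid plexus epithelium, exceeded 1000 CPM (counts scaled to library size, with TMM factors) in 3 of 5 treated jj and 2 of 5 treated Nj libraries. Those 5 libraries separated from the other treated libraries on the first principal component, which held 39.7% of the variance. The Y-linked gene Kdm5d exceeded 10 CPM in 2 treated jj and 1 treated Nj libraries, and these stood apart on the second component. Neither component separated jj from Nj. The median correlation of log2 CPM was 0.985 among treated jj libraries, 0.986 among treated Nj libraries and 0.987 between the groups.

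The locus that carries the Gunn mutation was the first point of comparison. The table holds it under a single symbol, Ugt1a5 (ENSRNOG00000018740), a member of the UGT1A cluster whose enzymes share their last exons with UGT1A1. Ugt1a5 stood at 1.88, 2.81, 2.19, 3.03 and 2.96 CPM in treated jj pups, against 3.17, 4.14, 2.43, 3.10 and 4.59 CPM in treated Nj pups. The groups overlapped through the treated Nj library at 2.43 CPM, and the other treated Nj libraries were above every treated jj library. The log2 difference was -0.44 (95% interval -0.85 to -0.03), and its adjusted p in edgeR's quasi-likelihood test was 0.724. In untreated pups, which share no library with the treated ones, the difference was -0.42, with 2.09 ± 0.514 CPM in untreated jj and 2.80 ± 0.497 CPM in untreated Nj pups (SD, n = 5 each). Of the 50 genes annotated closest to the locus in gene order, 15 were tested and 0 were called. Their median log2 difference was 0.03 and 12 of 15 were positive, against 51.2% of all genes tested.

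No gene passed the threshold of an adjusted p of 0.05 between treated jj and treated Nj pups. The edgeR quasi-likelihood test called 0 of 15272 genes (0%), and the lowest adjusted p was 0.371. At an unadjusted p under 0.05 there were 1011 genes, or 6.62% of those tested, 579 of them higher in treated jj pups (3.79%) and 432 lower (2.83%). The CPM ranges of the groups did not overlap for 184 genes (1.2%), of which 91 were higher in treated jj pups (0.596%) and 93 were lower (0.609%). DESeq2 called 2 genes, Tra2a, which was lower, and LOC103689971, which was higher and did not reach the count filter of the edgeR fit. With no count filter, edgeR tested 22829 genes and called 0, with a lowest adjusted p of 0.455. Without the library treated jj 1, edgeR called 1 gene, again LOC103689971. That library held the gene's lowest treated jj count, 2 against 34 to 118 in the others. Leaving it out therefore removed the contrary value. The count filter was run anew there, and the gene entered the tested set.

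The data bound how large a difference could have been missed. The median absolute log2 difference over all genes was 0.07, beside a median standard error of 0.08. The 95% interval of the difference lay within 1.5-fold in both directions for 12603 genes, or 82.5%, and within 2-fold for 14325 genes, or 93.8%. This precision depended on expression level. Within 1.5-fold lay 99.3% of the intervals of genes with an average log2 CPM above 6, 88.8% of those between 2 and 4, and 2.28% of those at 0 or under. For genes of low level, differences of 1.5-fold were therefore mostly not detectable at this depth and number of pups.

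**Figure D1:**
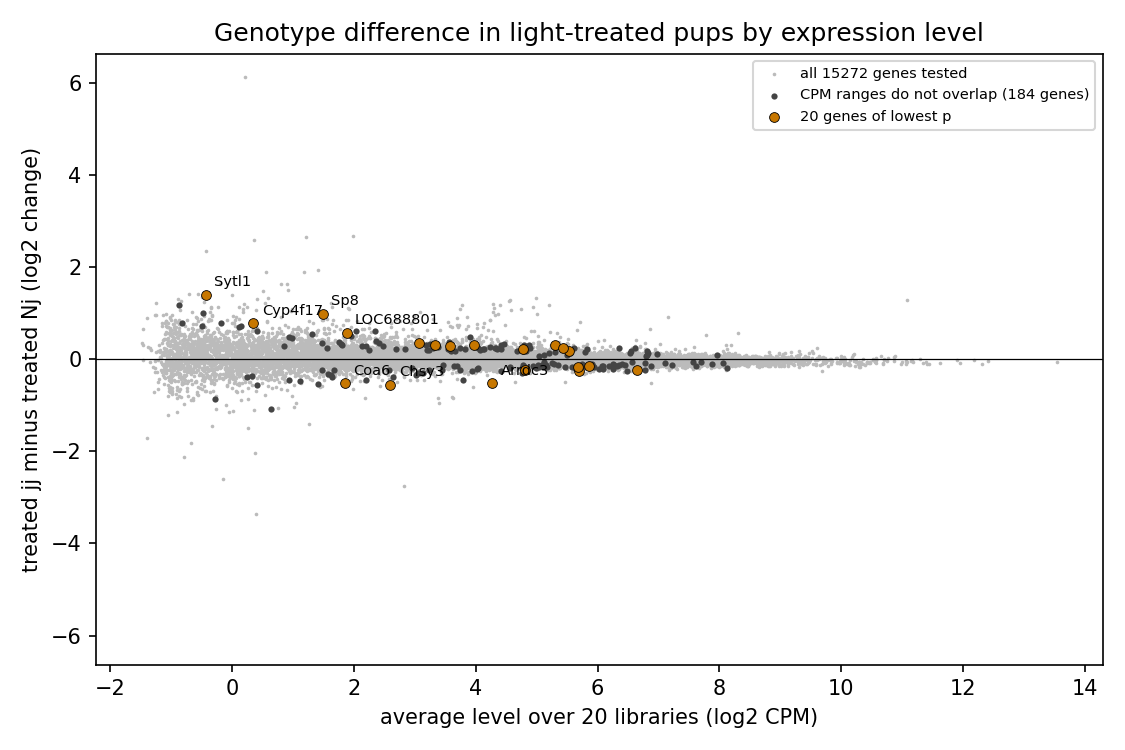
Log2 difference between treated jj and treated Nj pups (vertical axis) against the average log2 CPM over 20 libraries (horizontal axis) for each of the 15272 genes tested. The spread narrows with level; dark points are the 184 genes whose ranges did not overlap, orange points the 20 genes of lowest p, none of which passed the threshold in edgeR (DESeq2 called Tra2a among them).

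The direction of the small differences followed level. Among genes with an average log2 CPM above 6, 37.4% were higher in treated jj pups, with a median log2 difference of -0.02. Between 0 and 2 the share was 61.2%, with a median of 0.06. The same lean was present in untreated pups, with 34.0% of genes above 6 and 61.3% of genes between 0 and 2 higher in untreated jj pups. Since the sign leans with level, counts of positive and negative members in the gene groups below are read beside the size of their differences.

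The 20 genes of lowest p, none of which passed in edgeR, comprised 12 that were higher and 8 that were lower in treated jj pups. They were chosen by their p in this comparison, so their values are a description. Of these 20 genes, 17 had ranges that did not overlap, where 1.2% of all genes did, and a choice by low p favours such genes. Each of the 20 kept its sign under all 22 alternative settings. Those settings reuse the libraries by which the genes were chosen, so the kept signs are no separate support.

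Nuclear proteins that handle RNA or modify other proteins held several of the 8 lower genes. Tra2a, a splicing regulator of the serine/arginine-rich kind, stood at 48.7, 49.5, 51.3, 43.1 and 43.6 CPM in treated jj pups, against 55.1, 59.9, 55.3, 57.2 and 54.5 CPM in treated Nj pups. Every treated jj library was below every treated Nj library, and the log2 difference was -0.26 (95% interval -0.36 to -0.16, edgeR adjusted p = 0.371). In untreated pups the difference was -0.07. Sltm, a nuclear RNA-binding modulator of transcription, stood at 93.6, 89.0, 98.3, 83.9 and 88.5 CPM in treated jj pups, against 109, 111, 107, 102 and 101 CPM in treated Nj pups. Its groups did not overlap either, with a log2 difference of -0.22 (-0.33 to -0.12). Uba2, a subunit of the enzyme that activates SUMO, averaged 54.0 ± 1.71 CPM in treated jj and 60.2 ± 1.91 CPM in treated Nj pups (SD, n = 5 each). Its ranges were separate as well.

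Mitochondrial and matrix genes made up the rest of the lower set with Arrdc3. Mcu, the pore of the mitochondrial calcium uniporter, stood at 47.2, 47.3, 50.3, 49.3 and 48.7 CPM in treated jj pups, against 55.5, 53.7, 52.3, 58.9 and 53.1 CPM in treated Nj pups. The ranges were separate by a small gap, and the log2 difference was -0.17 (-0.26 to -0.09). Coa6, an assembly factor of cytochrome c oxidase, averaged 2.91 ± 0.367 CPM in treated jj and 4.17 ± 0.489 CPM in treated Nj pups (SD, n = 5 each), with ranges that overlapped. Chsy3, a chondroitin sulfate synthase, stood at 4.39, 4.11, 6.58, 5.86 and 4.60 CPM in treated jj pups, against 7.49, 7.26, 6.94, 8.25 and 7.51 CPM in treated Nj pups. Its log2 difference was -0.55 (-0.83 to -0.28), beside -0.02 in untreated pups. Arrdc3, an alpha-arrestin that steers receptors in endosomes, averaged 16.6 ± 2.67 CPM in treated jj and 23.8 ± 4.59 CPM in treated Nj pups (SD, n = 5 each), a log2 difference of -0.52 with overlapping ranges.

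Metabolic enzymes were among the 12 higher genes. Acss1, the mitochondrial enzyme that turns acetate into acetyl-CoA, stood at 41.2, 45.0, 41.1, 48.2 and 45.2 CPM in treated jj pups, against 32.9, 32.8, 39.1, 35.5 and 38.5 CPM in treated Nj pups. The ranges were separate, the log2 difference was 0.30 (0.16 to 0.45) and that of untreated pups was 0.14. Cyp4f17, of the fatty-acid hydroxylating CYP4F family, averaged 1.44 ± 0.281 CPM in treated jj and 0.833 ± 0.113 CPM in treated Nj pups (SD, n = 5 each), with separate ranges.

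The remaining higher genes act in transcription, signalling and traffic. Sp8, a zinc-finger transcription factor of interneurons, stood at 2.78, 3.78, 3.62, 4.78 and 3.99 CPM in treated jj pups, against 1.87, 1.28, 1.33, 2.70 and 2.34 CPM in treated Nj pups. Its ranges nearly touched, and the log2 difference was 0.99 (0.47 to 1.51). Sytl1, an effector of Rab27 in vesicle traffic, had a log2 difference of 1.40 (0.64 to 2.17) at means of 0.845 ± 0.255 CPM in treated jj and 0.313 ± 0.140 CPM in treated Nj pups (SD, n = 5 each). Med26, a subunit of the Mediator complex, averaged 8.86 ± 0.339 CPM in treated jj and 6.94 ± 0.673 CPM in treated Nj pups (SD, n = 5 each). Fzd9, a Wnt receptor of hippocampal progenitors, had a log2 difference of 0.31 (0.15 to 0.47), as did Fbxl21, an F-box protein that acts on the cryptochromes of the clock (0.15 to 0.46). Tmem8a, which trims lipid-anchored proteins, Zfp592, a zinc-finger protein, Sec24a, a coat protein of vesicles leaving the endoplasmic reticulum, and LOC688801 had log2 differences of 0.29, 0.18, 0.22 and 0.58. All of these genes had separate ranges.

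**Figure D2:**
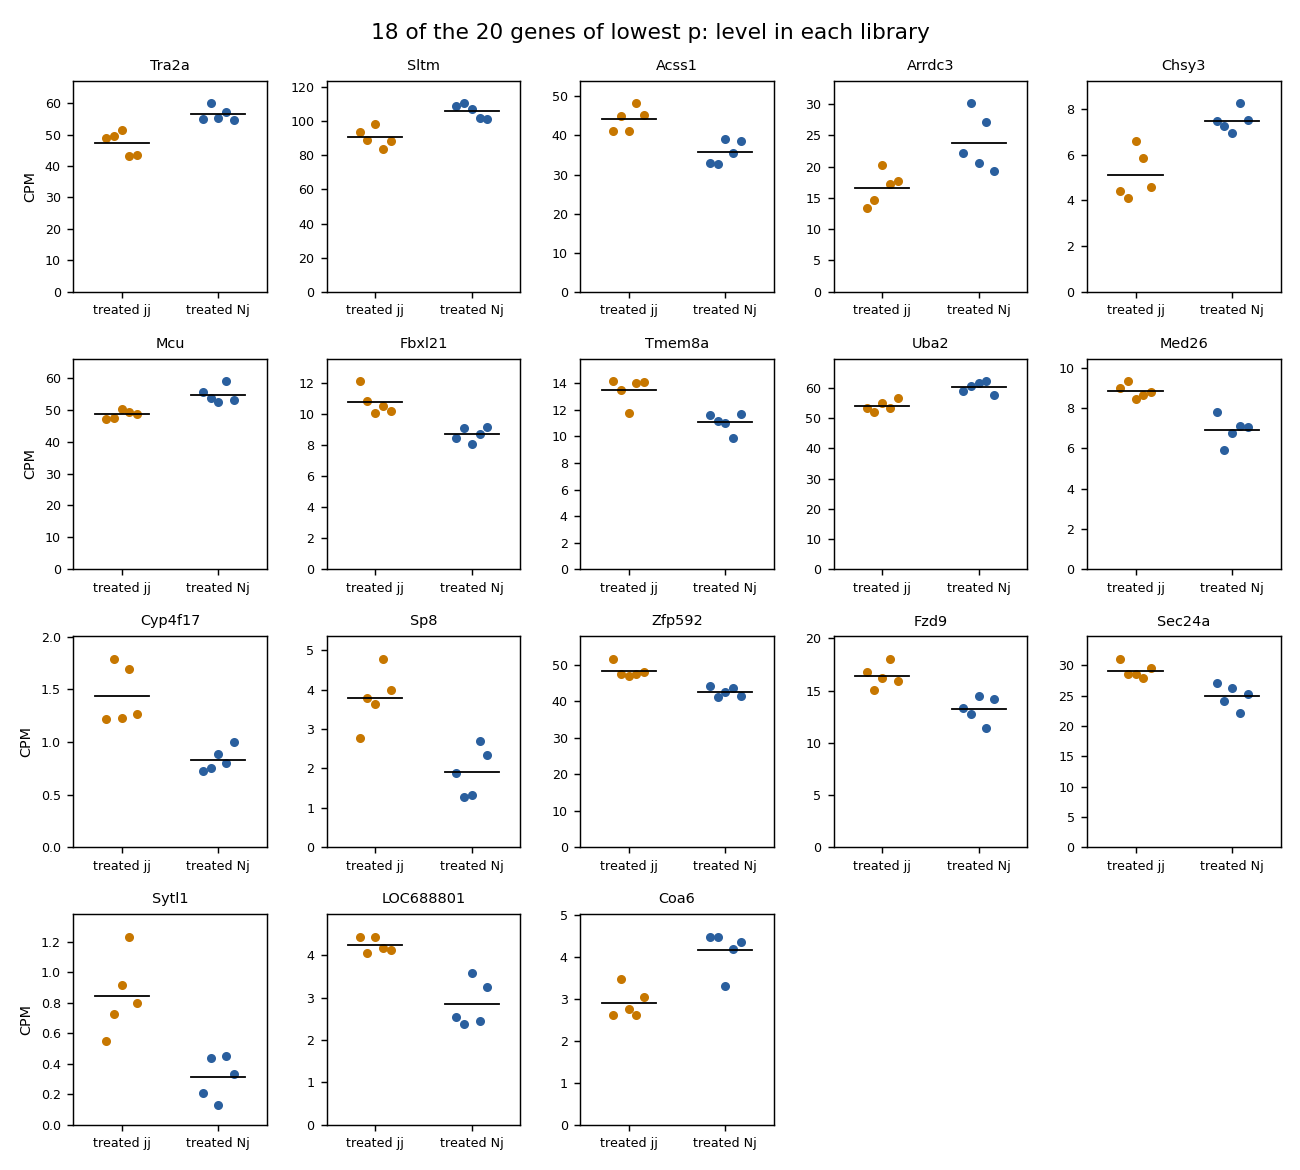
CPM in each of the 5 treated jj (orange, left) and 5 treated Nj (blue, right) libraries for 18 of the 20 genes of lowest p, with a bar at the group mean and axes from 0. The groups touch or overlap for Arrdc3 and Coa6 and are separate for the other 16 genes, none of which passed the adjusted threshold in edgeR (DESeq2 called Tra2a among them).

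Bilirubin production and transport genes had small differences between the genotypes under light. Of 17 measured members of the group, 0 were called and 1 had an unadjusted p under 0.05 (Ugt1a5, above), beside 6.62% of all genes. The median log2 difference was -0.01, beside 0.00 for all genes. The interval of 14 of 17 lay within 1.5-fold. Hmox1, the inducible heme oxygenase, stood at 7.80, 6.39, 5.82, 7.35 and 7.18 CPM in treated jj pups, against 6.03, 6.34, 6.19, 7.45 and 7.17 CPM in treated Nj pups. Its ranges overlapped almost wholly, with a log2 difference of 0.06 (-0.17 to 0.29). For Hmox2, the constitutive heme oxygenase, the difference was 0.00 (-0.10 to 0.10). The biliverdin reductases Blvra and Blvrb had differences of -0.09 and -0.03. The exporters Abcc1 and Abcb1a, both implicated in clearing bilirubin from brain, had differences of 0.03 (-0.15 to 0.20) and -0.06 (-0.21 to 0.09). Slco1a4, an organic anion carrier of the brain endothelium, stood at -0.37 (-0.74 to 0.00), with 6.38 ± 1.13 CPM in treated jj and 8.22 ± 1.88 CPM in treated Nj pups (SD, n = 5 each). Heme synthesis enzymes had a median of 0.05 over 9 members with 0 called.

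Iron genes held a few low-level differences. Of 15 measured members 0 were called and the median was 0.02, with 2 higher and 1 lower at an unadjusted p under 0.05, beside 3.79% higher and 2.83% lower over all genes. Slc40a1, the iron exporter ferroportin, averaged 4.84 ± 0.549 CPM in treated jj and 3.43 ± 0.593 CPM in treated Nj pups (SD, n = 5 each), with separate ranges and a log2 difference of 0.50 (0.14 to 0.85). Slc25a37, the mitochondrial iron importer mitoferrin, had a difference of 0.60 (0.22 to 0.98) with overlapping ranges. The lower member was Ncoa4, the receptor that takes ferritin to the lysosome, at -0.09 (-0.19 to 0.00). Red blood cell genes, taken as a sign of blood in the tissue, had a median of 0.13 over 11 members. Hba-a2, an alpha globin, averaged 301 ± 86.6 CPM in treated jj and 242 ± 37.7 CPM in treated Nj pups (SD, n = 5 each). Bpgm, another member, stood at -0.05 (-0.13 to 0.04), so the members did not all move with the globin. The part of blood in the iron values was not tested.

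Bilirubin is known both as a scavenger of oxidants and, at high level, as a cause of oxidative and endoplasmic reticulum stress, so antioxidant and stress genes were read next. The NRF2 and antioxidant group had 27 measured members, 0 called and 0 at an unadjusted p under 0.05, with a median of 0.03 and 24 intervals within 1.5-fold. Its members of lowest p were Gpx4, which guards membranes against lipid peroxides, at 0.11 (-0.02 to 0.24), and Gstm1, a glutathione transferase, at 0.09 (-0.02 to 0.19). The endoplasmic reticulum and integrated stress group had 25 members and a median of -0.03. At an unadjusted p under 0.05, 3 were higher and 2 lower, beside 3.79% and 2.83% of all genes. Edem1, which sends misfolded proteins to degradation, stood at 44.2 ± 1.01 CPM in treated jj and 49.5 ± 2.88 CPM in treated Nj pups (SD, n = 5 each), with separate ranges. Sesn2, a stress-induced sestrin, had a difference of 0.20 (0.05 to 0.36). Cell death genes and p53 targets had a median of 0.00 over 23 members with 0 at an unadjusted p under 0.05. Ccng1, a p53 target, stood at -0.12 (-0.26 to 0.02). Heat shock genes leaned lower, 14 of 19, with a median of -0.04 and Hsph1, a chaperone of the Hsp110 family, at -0.12 (-0.21 to -0.03).

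Glial genes stood close to zero with a lean to higher values in treated jj pups. Astrocyte genes had a median of 0.06, with 19 of 24 positive and 0 at an unadjusted p under 0.05. Gfap, the astrocyte filament, stood at 335, 330, 285, 292 and 318 CPM in treated jj pups, against 299, 252, 287, 271 and 311 CPM in treated Nj pups. Its groups overlapped, with a log2 difference of 0.14 (-0.08 to 0.35). Microglia genes had a median of 0.05 over 22 members, 0 called. P2ry12, the purinergic receptor of resting microglia, was the member of lowest p, at 9.82 ± 0.931 CPM in treated jj and 11.3 ± 0.591 CPM in treated Nj pups (SD, n = 5 each; log2 difference -0.20, -0.40 to -0.01). Its difference in untreated pups was 0.14. Tyrobp, the adaptor of microglial receptors, stood at 0.20 (-0.01 to 0.41), and Aif1, which encodes Iba1, at 0.02 (-0.21 to 0.25).

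Inflammatory genes were likewise near zero. Cytokine and inflammation genes had a median of 0.02 over 17 members, and interferon and antigen presentation genes a median of 0.02 over 26, with 0 called in either group. Nlrp3, the inflammasome sensor, had a difference of 0.39 (0.05 to 0.74), at 2.72 ± 0.398 CPM in treated jj and 2.07 ± 0.315 CPM in treated Nj pups (SD, n = 5 each). RT1-A2, a class I antigen-presenting molecule, stood at 2.37 ± 0.180 CPM in treated jj and 1.71 ± 0.150 CPM in treated Nj pups (SD, n = 5 each), with separate ranges and a difference of 0.46 (0.18 to 0.75). RT1-CE10, another class I gene, stood in the other direction at -0.70 (-1.39 to -0.01), with 0.434 ± 0.167 CPM in treated jj and 0.711 ± 0.355 CPM in treated Nj pups (SD, n = 5 each), and RT1-A1 at -0.09 (-0.69 to 0.50). Reads of class I genes may be shared among near-identical copies, so these values are uncertain. Of the interferon and antigen presentation genes 2 were higher and 1 lower at an unadjusted p under 0.05, beside 3.79% and 2.83% of all genes.

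Oligodendrocyte precursor genes had a median of 0.11, with 12 of 14 positive and 0 called. Sox10, the lineage transcription factor, averaged 32.7 ± 2.24 CPM in treated jj and 27.5 ± 2.33 CPM in treated Nj pups (SD, n = 5 each), a difference of 0.25 (0.06 to 0.44). Cspg4, the NG2 proteoglycan, stood at 0.17 (0.01 to 0.33). Myelinating oligodendrocyte genes had a median of 0.06 over 16 members, and Mbp, the myelin basic protein gene, a difference of 0.17 (-0.14 to 0.48).

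Immediate early genes, which neurons transcribe within minutes of activity, leaned lower in treated jj pups. Of 24 measured members 18 were negative and the median was -0.08. None was called, and 3 were lower and 1 higher at an unadjusted p under 0.05, beside 2.83% and 3.79% of all genes. For 3 members the ranges lay wholly below those of treated Nj pups, where 0.609% of all genes did. Npas4, a calcium-driven transcription factor of excitatory and inhibitory neurons, stood at 1.10, 0.775, 0.766, 1.03 and 0.938 CPM in treated jj pups, against 1.77, 1.85, 1.37, 2.70 and 2.20 CPM in treated Nj pups. Its log2 difference was -1.09 (-1.81 to -0.37, edgeR adjusted p = 0.724). Nr4a1, an orphan nuclear receptor, stood at 11.9, 11.9, 12.8, 14.4 and 13.2 CPM in treated jj pups, against 15.5, 14.6, 14.9, 15.2 and 15.3 CPM in treated Nj pups. The gap between the groups was narrow, and the log2 difference was -0.24 (-0.41 to -0.07). Egr1, a zinc-finger factor of synaptic plasticity, stood at 26.5, 25.5, 27.9, 27.2 and 28.2 CPM in treated jj pups, against 29.7, 34.5, 29.2, 42.8 and 30.3 CPM in treated Nj pups. The library treated Nj 4 was the highest for Egr1 and Npas4. Fos, a partner in the AP-1 dimer, and Arc, a synaptic effector, had differences of -0.33 and -0.26 with overlapping ranges.

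Not every member leaned the same way, and the lean was also present without light. Egr4 stood at 0.26, Junb at 0.04 and Fosb at -0.07. In untreated pups the group had a median of -0.07 with 5 of 24 positive, and Npas4, Nr4a1 and Egr1 had differences of -0.77, -0.07 and -0.32. Bdnf, the neurotrophin whose transcription also follows activity, stood at 21.5 ± 1.93 CPM in treated jj and 23.6 ± 1.92 CPM in treated Nj pups (SD, n = 5 each), a difference of -0.13 (-0.31 to 0.06).

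Npas4 and Nr4a1, the lowest p of the group, differ in the promoter element best known for activity-driven transcription, the cyclic AMP response element TGACGTCA and its half-site TGACG. Their promoters, from 250 bases before to 50 bases after the start, are shown 5′ to 3′ on the gene's strand to let both be compared, with half-site matches on either strand in capitals (RefSeq, GRCr8; chr1:211716053-211716352, minus strand, and chr7:134259888-134260187, plus strand).
Npas4: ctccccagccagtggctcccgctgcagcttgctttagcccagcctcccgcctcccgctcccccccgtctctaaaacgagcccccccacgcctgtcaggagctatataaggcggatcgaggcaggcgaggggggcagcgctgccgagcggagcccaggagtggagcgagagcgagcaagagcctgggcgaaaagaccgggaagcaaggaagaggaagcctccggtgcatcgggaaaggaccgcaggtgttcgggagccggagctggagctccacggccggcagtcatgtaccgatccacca
Nr4a1: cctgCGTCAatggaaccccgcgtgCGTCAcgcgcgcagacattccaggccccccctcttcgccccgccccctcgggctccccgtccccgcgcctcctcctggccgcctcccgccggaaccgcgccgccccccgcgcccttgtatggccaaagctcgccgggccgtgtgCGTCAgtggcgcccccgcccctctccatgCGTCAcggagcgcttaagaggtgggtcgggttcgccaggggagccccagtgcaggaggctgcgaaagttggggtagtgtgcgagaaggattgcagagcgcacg
The Nr4a1 window held 4 half-sites and the Npas4 window 0, and neither held the full element. The window of Egr1, whose range also lay wholly below, held 2 half-sites and 0 full elements. A half-site is present in 21.2% of the 33469 rat promoters of this length and the full element in 1.83%, where each full element also counts as half-sites. Of the 24 immediate early genes 19 had a promoter in the table, 10 with a half-site and 3 with the full element (Btg2, Dusp1 and Ier2). Btg2, Dusp1 and Ier2 had log2 differences of -0.08, -0.11 and -0.07.

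Interneuron genes leaned the other way. Of 25 measured members 19 were positive and 0 were called. At an unadjusted p under 0.05, 6 were higher and 0 lower, beside 3.79% and 2.83% of all genes. Ranges of 3 members lay wholly above those of treated Nj pups, where 0.596% of all genes did. The median was small, 0.05. Beside Sp8 (above), these were Slc32a1 and Maf. Slc32a1, the vesicular GABA transporter, stood at 88.0, 76.6, 82.1, 98.7 and 94.7 CPM in treated jj pups, against 74.0, 71.7, 74.5, 74.8 and 75.7 CPM in treated Nj pups. The treated Nj libraries lay close together and below the lowest treated jj library, and the log2 difference was 0.25 (0.10 to 0.40). Maf, a transcription factor of cortical and hippocampal interneurons, had a difference of 0.18 (0.02 to 0.33). Of the transcription factors of the ventral forebrain, where interneurons are born, Dlx1 stood at 0.17, Dlx2 at 0.21, Dlx5 at 0.25 and Sp9 at 0.38, while Lhx6 stood at 0.01 and Nkx2-1 at -0.04. Zic1, a zinc-finger factor of neighbouring forebrain regions and no member of the group, stood at 19.9, 37.4, 39.1, 48.1 and 42.3 CPM in treated jj pups, against 18.1, 18.5, 16.5, 37.6 and 32.0 CPM in treated Nj pups, a log2 difference of 0.61 (-0.05 to 1.26). The library treated jj 4 was the highest of its group for both Zic1 and Sp8, treated jj 1 the lowest of its group for both, and treated Nj 4 the highest of its group for both. The part of uneven tissue content in the interneuron values was not tested. The genes for GABA synthesis did not follow, with Gad1 at 0.05 (-0.07 to 0.18) and Gad2 at 0.03 (-0.14 to 0.19). Subtype markers stood at 0.02 for Sst, 0.22 for Pvalb and -0.12 for Vip. In untreated pups 9 of 25 members were positive, the median was -0.04, and Sp8 and Slc32a1 had differences of -0.14 and -0.05.

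**Figure D3:**
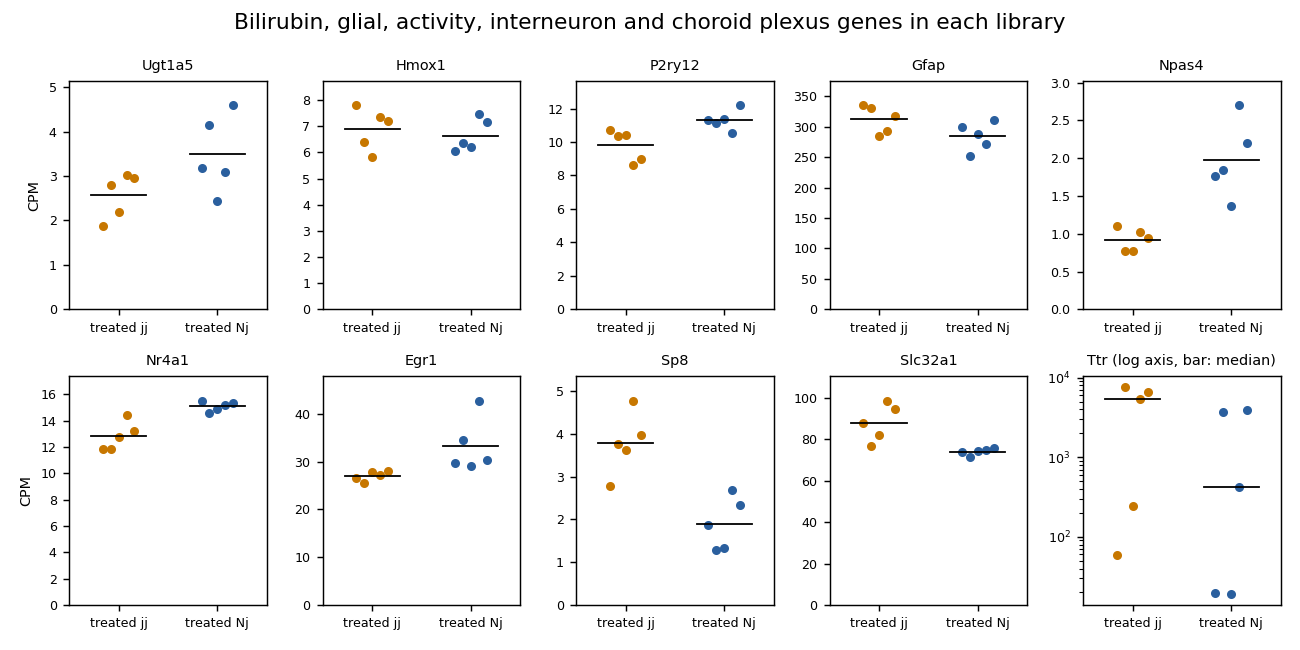
CPM in each of the 5 treated jj (orange, left) and 5 treated Nj (blue, right) libraries, with a bar at the group mean (for Ttr a log axis and a bar at the median). Npas4, Nr4a1 and Egr1 lie lower and Sp8 and Slc32a1 higher in every treated jj library; Hmox1 and Gfap overlap, and Ttr spans more than its group difference within both groups.

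Synaptic genes were tightly bounded. All 33 measured glutamate receptor and postsynaptic genes and all 20 genes of the GABA and glycine synapse had intervals within 1.5-fold. Grin3a, a modulatory NMDA receptor subunit, stood at 96.1 ± 7.55 CPM in treated jj and 113 ± 4.87 CPM in treated Nj pups (SD, n = 5 each), with separate ranges and a difference of -0.23 (-0.37 to -0.09). Cacng8, an auxiliary AMPA receptor subunit, stood at 0.19 (0.05 to 0.32) with separate ranges in the other direction. Of the 33 members 3 were higher and 1 lower at an unadjusted p under 0.05, beside 3.79% and 2.83% of all genes. Ranges lay wholly above for 2 members and wholly below for 1, beside 0.596% and 0.609% of all genes. Of the inhibitory synapse genes 15 of 20 were negative, with a median of -0.05. At an unadjusted p under 0.05, 1 was higher and 2 were lower, beside 3.79% and 2.83% of all genes. The higher one was Slc32a1 (above), the member of lowest p, at 0.25 (0.10 to 0.40) with separate ranges. Glra2, a fetal glycine receptor subunit, stood at -0.21 (-0.33 to -0.08). Presynaptic release genes had a median of 0.01, with Slc17a6, a vesicular glutamate transporter, at -0.18 (-0.32 to -0.03). Calcium-binding proteins had a median of -0.04. Calb1, the calbindin gene, whose loss is a known feature of bilirubin injury in the Gunn rat cerebellum, had a difference of -0.15 (-0.46 to 0.15) here. That value rests on the library treated Nj 4, at 97.9 CPM against 55.3 to 66.4 CPM in the other treated Nj libraries. Without it the difference was 0.0243, and without the 3 treated libraries with Kdm5d above 10 CPM it was 0.0513. Neurotrophins and their receptors had a median of -0.05, with Ntrk3, the receptor of neurotrophin-3, at -0.08 (-0.16 to 0.00).

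Developmental groups showed small, mixed leans. Neural progenitor genes had 15 of 18 positive and a median of 0.07, led by Notch1, the receptor that holds progenitors undifferentiated, at 0.17 (0.04 to 0.29), and Neurog2, a proneural factor, at 0.47 (0.01 to 0.94). Immature neuron genes had 15 of 21 negative and a median of -0.07. Their member Sox11, a transcription factor of newborn neurons, was nonetheless higher in value at 45.6 ± 2.70 CPM in treated jj and 38.5 ± 1.36 CPM in treated Nj pups (SD, n = 5 each), with separate ranges, while Stmn2, a microtubule regulator of growing axons, stood at -0.11 (-0.21 to 0.00). Cell cycle genes had a median of -0.03 over 34 members, all with intervals within 1.5-fold. Axon guidance genes had 25 of 37 negative and a median of -0.03. At an unadjusted p under 0.05, 2 were higher and 2 lower, beside 3.79% and 2.83% of all genes. The higher ones were Unc5b, a netrin receptor, at 0.15 (0.03 to 0.26), and Plxnb1, a semaphorin receptor, at 0.13 (0.01 to 0.26). The lower ones were Plxna2, another semaphorin receptor, at -0.11 (-0.22 to -0.01), and Efnb2, an ephrin ligand, at -0.25 (-0.49 to -0.01). Subfield markers had medians of -0.03 for pyramidal cells and 0.00 for granule cells, where Glis3 stood at 0.50 (0.09 to 0.91) and Stxbp6 at -0.21 (-0.39 to -0.04). Markers of neighbouring forebrain and thalamus had medians of -0.03 and -0.01, with Bcl11b, a factor of deep cortical neurons, at -0.16 (-0.30 to -0.03).

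Energy and household genes were close between the genotypes. All 70 measured nuclear genes of the respiratory chain had intervals within 1.5-fold, with 50 positive and a median of 0.02. Ndufa7 and Ndufs7, subunits of complex I, stood at 0.12 (0.03 to 0.21) and 0.18 (0.03 to 0.33), and Uqcrb (ENSRNOG00000032204; 1 of 2 listings), a subunit of complex III, at -0.15 (-0.29 to -0.01). The 13 protein genes of the mitochondrial genome were all negative, with a median of -0.07, 0 at an unadjusted p under 0.05, and Mt-nd1 at -0.08 (-0.27 to 0.11). Without the libraries above 1000 CPM of Ttr, which leaves 2 treated jj and 3 treated Nj libraries, that median was 0.03. Splicing and hnRNP genes, the group of Tra2a, had 22 of 30 negative and a median of -0.06, and in the same reduced set 0.00. Cholesterol synthesis genes had a median of 0.01 over 26 members, with Mvd, a mevalonate pathway enzyme, at 0.16 (0.02 to 0.31). Lysosome and autophagy genes had 17 of 23 positive and a median of 0.06. Glycolysis, serine synthesis and ribosomal protein genes had medians of 0.02, 0.00 and 0.01. Slc2a1, the glucose transporter of the blood-brain barrier, stood at 0.11 (0.01 to 0.21), and Phgdh, the first enzyme of serine synthesis, at 0.15 (0.02 to 0.28). Shmt1, the cytosolic enzyme that converts serine to glycine, stood at -0.30 (-0.55 to -0.05).

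Clock and hormone response genes also had small differences under the shared light. Clock genes had a median of 0.04 over 21 members with 0 called. Dbp, an output of the clock, stood at 0.14 (-0.03 to 0.32), Per1, a core repressor, at -0.01 (-0.17 to 0.15), and Bhlhe40, a clock repressor, at -0.17 (-0.30 to -0.04). Its paralogue Bhlhe41 stood in the other direction, at 0.26 (0.00 to 0.52). Glucocorticoid response genes had a median of 0.00 over 18, with Fkbp5, a target of the receptor, at -0.01 (-0.16 to 0.14) and Zbtb16, another, at 0.24 (0.03 to 0.45). Bilirubin is a ligand of the aryl hydrocarbon receptor. The group of its targets and of xenobiotic metabolism genes had a median of 0.02 over 8 members. These include the receptor gene Ahr itself, so the median is not one of targets alone. Cyp1b1 was the member of lowest p, at 41.6 ± 4.13 CPM in treated jj and 48.2 ± 3.76 CPM in treated Nj pups (SD, n = 5 each; difference -0.21, -0.40 to -0.02), while Cyp1a1 did not reach the count filter.

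The 3 Y-linked genes were left out here, among them Kdm5d, whose level follows single libraries (below). Of the other groups, the largest median belonged to tissue beside the hippocampus. All 23 measured choroid plexus genes were positive, with a median log2 difference of 0.84, yet 0 were called, 0 had an unadjusted p under 0.05 and 0 had an interval within 1.5-fold. Ttr stood at 59.1, 7667, 247, 5390 and 6558 CPM in treated jj pups, against 19.7, 3695, 18.9, 427 and 3950 CPM in treated Nj pups. Both groups hold libraries with low and with high Ttr, and the interval of its difference, -2.87 to 5.46 around 1.30, spans both directions. The summed level of the choroid plexus genes ran from 397 to 9537 CPM in treated jj and from 300 to 5185 CPM in treated Nj libraries. Without the libraries above 1000 CPM of Ttr, which leaves 2 treated jj and 3 treated Nj libraries, the median was -0.09. Ttr is itself a member of the group, so that value follows in part from how the libraries were chosen.

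Ependymal and motile cilia genes, expressed by the cells that line the ventricle also leaned higher. They had 14 of 15 positive and a median of 0.33, beside -0.09 in untreated pups. Dnah9, a ciliary dynein, stood at 36.4, 50.6, 37.1, 36.1 and 40.6 CPM in treated jj pups, against 33.4, 35.1, 32.6, 32.8 and 38.4 CPM in treated Nj pups. The groups overlapped, at a log2 difference of 0.22 (0.00 to 0.44). Without the Ttr-rich libraries the median of the group was 0.14, and the part of choroid plexus content in it was not tested further. Meningeal fibroblast genes had a median of -0.05, with summed levels of 1207 to 2534 CPM in treated jj and 1006 to 2646 CPM in treated Nj libraries. Endothelial and pericyte genes had a median of -0.05 and border macrophage genes one of -0.08. Rgs5, a pericyte marker, averaged 53.5 ± 1.65 CPM in treated jj and 60.6 ± 3.83 CPM in treated Nj pups (SD, n = 5 each; difference -0.18, -0.30 to -0.07). It was the single lower one of 25 members of its group at an unadjusted p under 0.05. The 3 higher ones were Slc2a1 (above), Cspg4 (above) and Mfsd2a, a lipid transporter of the blood-brain barrier, at 0.19 (0.02 to 0.36). Of all genes, 2.83% were lower and 3.79% higher at that p. Kdm5d was at 42.3 and 38.1 CPM in the libraries treated jj 3 and treated jj 5, against 37.8 CPM in treated Nj 4, and at 0.0484 CPM or 0 in the other treated libraries.

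**Figure D4:**
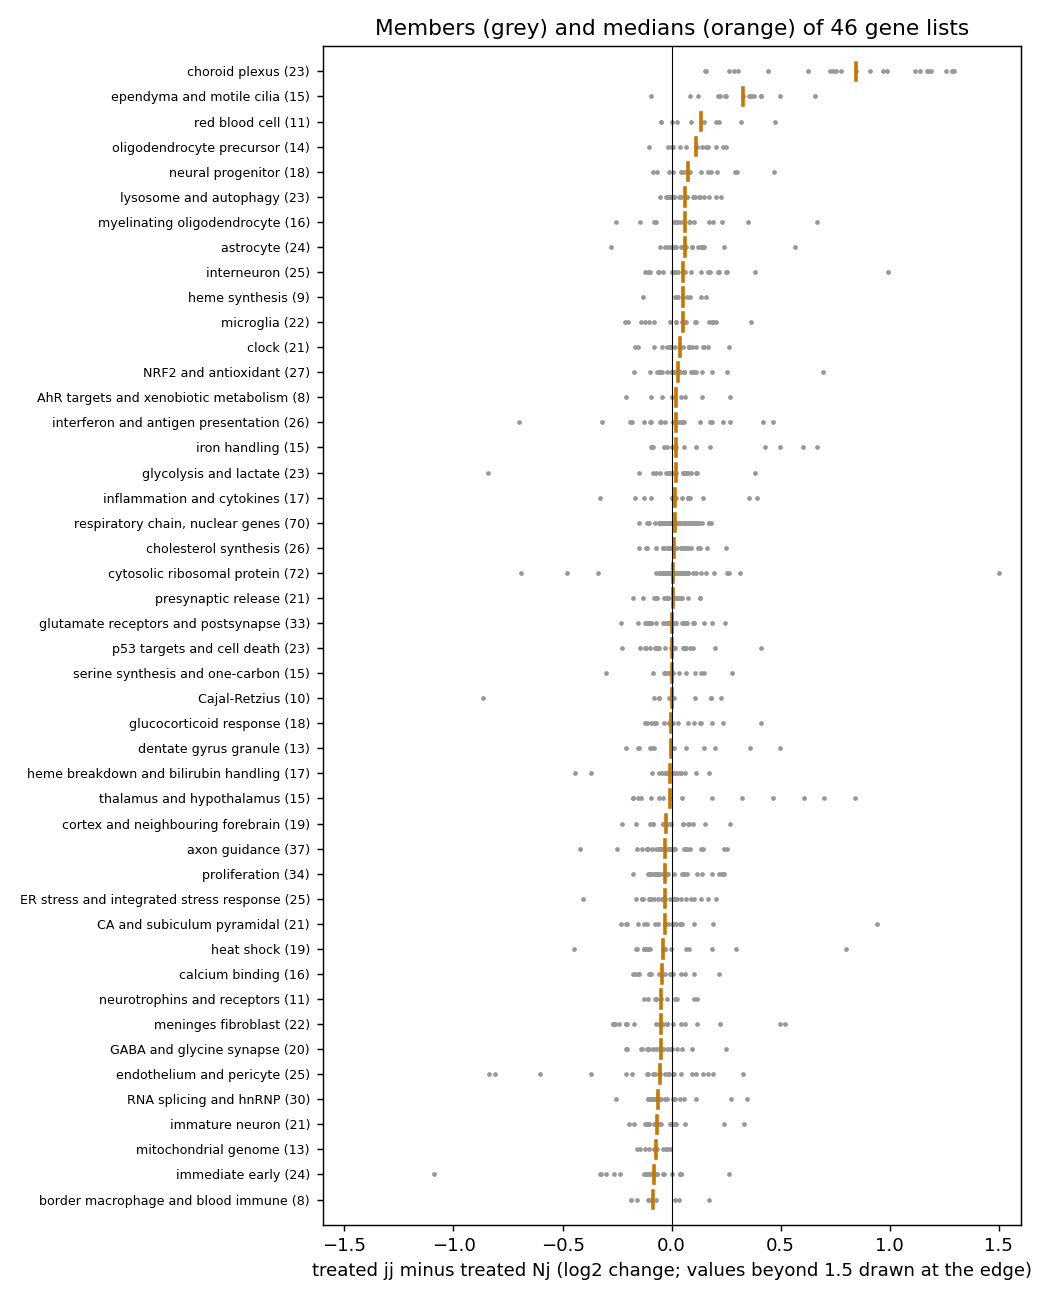
Log2 difference between treated jj and treated Nj pups for the members (grey points) and the median (orange bar) of 46 gene lists (the Y-linked list is not drawn), with the number of measured members in brackets. Medians lie between -0.1 and 0.1 for 42 lists; choroid plexus, ependyma, red blood cell and oligodendrocyte precursor lists lie above, and no list held a gene called by edgeR (DESeq2 called Tra2a, of the splicing list).

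The untreated pups give the genotype difference in other animals, where the title prefix goes with the genotype. Between untreated jj and untreated Nj pups the same edgeR model called 0 genes (0%), with 972 at an unadjusted p under 0.05 (6.36%). The sign of the difference was the same in treated and untreated pups for 62.6% of all genes, and for 716 of the 1011 genes with an unadjusted p under 0.05 in treated pups, or 70.8%. Of these 1011 genes 81 had an unadjusted p under 0.05 with the same sign in untreated pups and 10 with the opposite sign. Over all 15272 genes tested, these numbers were 703 with the same sign and 269 with the opposite sign. For the 184 genes with separate ranges the sign was shared by 142, or 77.2%. Across the 12128 genes with an average log2 CPM above 2 the correlation of both differences was 0.28 (Pearson) and 0.38 (Spearman). It was 0.15 and 0.29 over all genes tested, and -0.08 and -0.09 over the 20 genes of lowest p. The treated and untreated comparisons share no library but come from the same fit, the differences of both lean with level as given above, and genes are not independent replicates.

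Whether the genotype difference itself differed between treated and untreated pups was tested as an interaction. The edgeR test called 0 of 15272 genes (0%), with 521 at an unadjusted p under 0.05 (3.41%) and a lowest adjusted p of 1.00. Title prefixes of the libraries differ between treated and untreated pups, and what the prefix stands for was not given, so light and prefix cannot be told apart in this test. Nor can genotype and prefix in its untreated arm. Its 5 genes of lowest p, none of which passed, included Tsnaxip1, Myh6, Coa6 and Anp32a. Tsnaxip1 had a log2 difference of 0.65 in treated and -0.62 in untreated pups. Myh6, a cardiac myosin with group means below 2 CPM here, had 0.43 in treated and -0.88 in untreated pups, and Coa6 had -0.52 in treated and 0.27 in untreated pups.

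Anp32a, a nuclear regulator of histone acetylation and phosphatase activity, is listed under 2 gene identifiers. The first (ENSRNOG00000058484) stood at 28.3 ± 2.31 CPM in treated jj and 28.4 ± 4.12 CPM in treated Nj pups, against 24.9 ± 3.38 CPM in untreated jj and 40.6 ± 7.22 CPM in untreated Nj pups (SD, n = 5 each). Its difference was -0.01 (-0.25 to 0.24) in treated and -0.70 (-0.95 to -0.46; edgeR adjusted p = 0.112) in untreated pups, and the interaction was 0.70 (0.35 to 1.05). The second (ENSRNOG00000014846) had -0.48 (-0.85 to -0.11) in treated and -0.19 (-0.56 to 0.19) in untreated pups. Reads may be split between both listings, and their sum was 51.6 ± 2.56 CPM in treated jj and 61.0 ± 11.4 CPM in treated Nj pups (SD, n = 5 each). In untreated pups both listings were lower in jj by value, and the interaction of their sum was not tested.

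**Figure D5:**
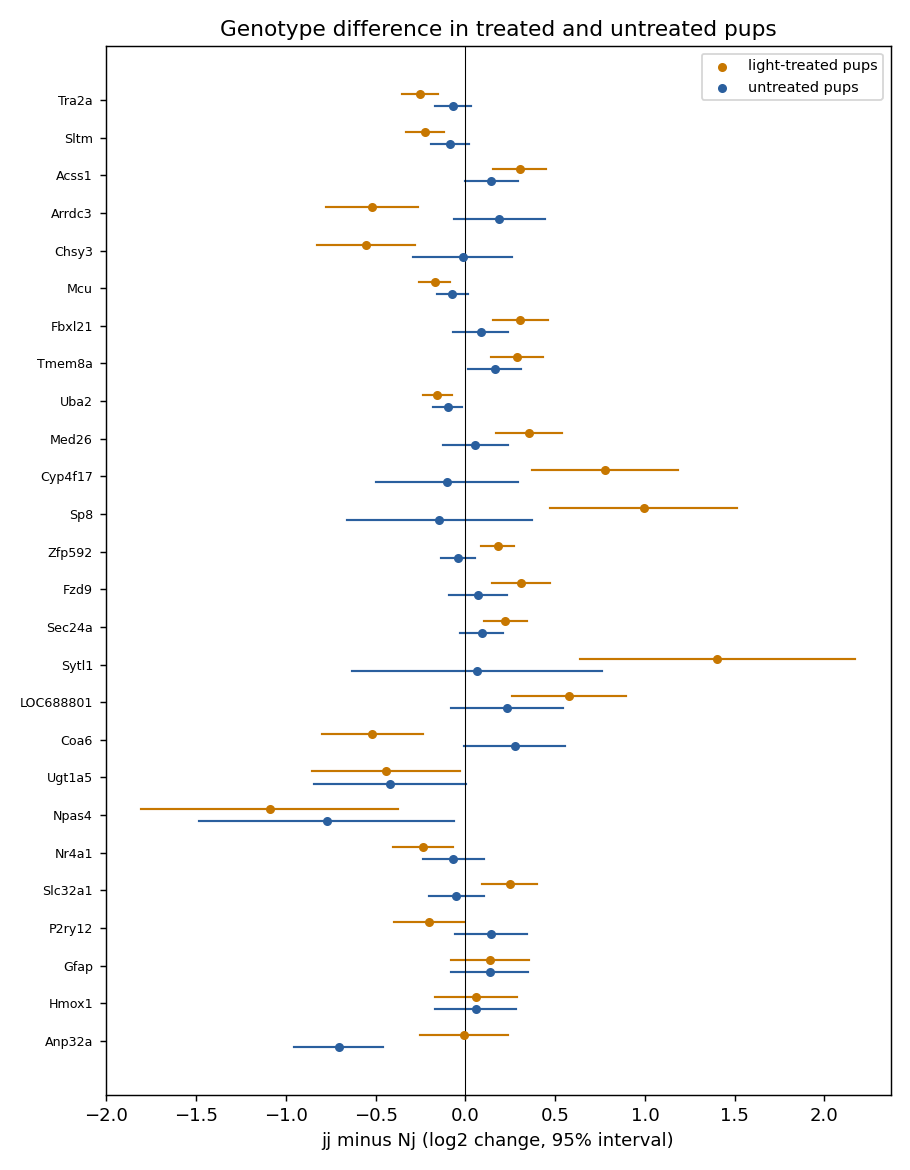
Log2 difference jj minus Nj with its 95% interval in light-treated pups (orange, upper of each pair) and untreated pups (blue, lower) for 18 of the 20 genes of lowest p in treated pups and 8 further genes. Ugt1a5, Npas4, Gfap and Hmox1 have like values in both, Sp8, Arrdc3 and Coa6 are among those that differ in sign, and Anp32a (ENSRNOG00000058484) is near 0 in treated and at -0.70 in untreated pups; no interaction passed the threshold.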

How the data were processed

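PolyA RNA of hippocampus from 20 Gunn rat pups was sequenced after Illumina TruSeq library preparation, per the labels' protocols. The deposited table holds the authors' raw read counts per rat Ensembl gene, with no normalisation. The submitters' processing notes list TopHat2 2.0.13, Subread, FastQC and edgeR, and also a mouse build, although the identifiers are of rat genes. Strand and the handling of reads that map to several places were not stated, and overlapping genes and near-identical copies are uncertain. Depth sets the precision given with each interval.

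Groups follow the labels. Nothing says more of the replicates than that 5 rats were used per group, so p-values measure the spread between these pups. No 2 treated libraries agreed within sampling noise. Of 32883 genes listed, 10054 had no count, and edgeR's filterByExpr by group left 15272. Counts were scaled by TMM and fitted in edgeR 4.0.16 (R 4.3.3) as a means model of 4 groups over 20 libraries, with robust quasi-likelihood F-tests, two-sided, and Benjamini-Hochberg adjustment over all genes tested (threshold 0.05). Intervals are 95% and derive from that fit. The steps were run on simulated data with changes set only in genes above a minimum level, so recovery at low level was not tested. Alternatives used DESeq2 1.42.0, limma 3.58.1 (voom), other scalings, filters, covariates and libraries left out. Named genes are the 20 of lowest p, the 2 of lowest p in each list of genes, a set of bilirubin, clock and cell type genes, and the 5 of lowest interaction p; a few list members beside them were chosen after their values were seen. A few genes that this choice names are not reported here, though counts include them. The members and lists were chosen with earlier results of these data known. Promoters were matched by symbol to RefSeq (GRCr8). Figures were drawn with matplotlib 3.10.9.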

Additional observations from a re-analysis of the deposited data

Results flagged for a closer look

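Among the named genes, 17 of 248 groups of 5 (6.85%) held a library whose gap to the nearest other library, divided by the range of the group, exceeded Dixon's 95% critical value of 0.71. Chance flags about 1 in 20 groups. The item with the clearest consequence was Rps9 (ENSRNOG00000058909), where treated jj 1 stood at 42.7 CPM against 0.985 to 2.32 CPM in the other treated jj libraries (ratio 0.968), so that its log2 difference of 2.68 rests on that library. Kdm5d stood at 37.8 CPM in treated Nj 4 and at 0 in the other treated Nj libraries (ratio 1). Library treated jj 3 was the far one for Tmem8a (11.7 CPM, ratio 0.735), Sesn2 (20.8 CPM, 0.752), Mvd (47.9 CPM, 0.786), Hspa4l (113 CPM, 0.812) and Tspan2 (92.6 CPM, 0.786). Library treated jj 1 was the far one for Zfp592 (51.6 CPM, 0.769) and Glra2 (64.3 CPM, 0.727). In treated jj 2, Blvrb stood at 21.2 CPM (0.802) and Aif1 at 13.5 CPM (0.734). In treated jj 4 Bpgm stood at 89.6 CPM (0.730), and in treated jj 5 Anp32a (ENSRNOG00000014846) at 28.8 CPM (0.720). Among treated Nj libraries, the far ones were treated Nj 4 for Calb1 (97.9 CPM, 0.740), treated Nj 3 for Coa6 (3.32 CPM, 0.751) and Aif1 (8.85 CPM, 0.928), and treated Nj 2 for Plxnb1 (76.6 CPM, 0.764).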

How the results depend on the processing

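The count of genes called between treated jj and treated Nj pups was 0 in 12 of 13 settings other than leaving out a single library, and 2 by DESeq2 (LOC103689971 and Tra2a, both adjusted p = 0.0109). Leaving out each library in turn gave 0 to 1, where the 1 is LOC103689971 without treated jj 1 (adjusted p = 0.000298). The interaction likewise had 0 called in 11 settings and 0 to 1 with a library left out (LOC103689971 without treated jj 1, adjusted p = 0.0133). Both calls without treated jj 1 leave out the only treated jj library where the gene was low. The gene also did not reach the count filter of the main fit, so these calls are no separate support. Genes at an unadjusted p under 0.05 numbered 2355 by limma-voom, 1519 with treated libraries alone, 673 without treated jj 4, 1682 without treated jj 3 and 455 when libraries of over 1000 CPM of Ttr were dropped. Averaged over treated and untreated pups, a contrast chosen after seeing the data, the genotype had 0 called and 1709 at an unadjusted p under 0.05. Without the 3 treated libraries with Kdm5d above 10 CPM, also chosen after seeing the data, there were 0 called. Of 1510 gene values in other settings 21 had the opposite sign, all of genes with adjusted p of at least 0.724. With the Ttr-rich libraries dropped these were Urod (-0.0520), Tnfrsf1a (-0.0143), Tp73 (-8.28e-06), Ppp1r1b (-0.0552), Mt-nd3 (0.0106), Mt-nd1 (0.0307), Abcb1a (0.0574), Pf4 (-0.116) and Ttr (-0.0290), by whose level the libraries were chosen. Without the libraries with Kdm5d they were Calb1 (0.0513), Lyve1 (0.0194), Fkbp5 (0.104), Per1 (0.102) and Anp32a (ENSRNOG00000058484; 0.0918). Others were Lyve1 (0.0143) and Per1 (0.0278) by limma-voom, Per1 (0.00204) and Anp32a (0.00391) with upper-quartile scaling, Abcc1 (-0.00901) and Anp32a (0.0186) with the choroid plexus covariate, and Hmox2 (-0.00455) with the Y-linked covariate. With 1 library left out the sign turned for Calb1 (-0.218 to 0.0243), Lyve1 (-0.237 to 0.0710), Blvrb (-0.0447 to 0.00340), Aif1 (-0.0546 to 0.0529), Fkbp5 (-0.0560 to 0.0394), Per1 (-0.0393 to 0.0541), Hmox2 (-0.00474 to 0.0205) and Anp32a (-0.0578 to 0.0821). The cause was not tested. No paired analysis was possible because the titles number treated jj pups 7 to 11 and treated Nj pups 1 to 5, which share no number. Depth limits genes of low level most.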

Other observations

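The 10 largest differences by size, named after their values were seen, did not pass in edgeR (adjusted p = 0.724 each), and all had ranges that overlapped. Most rest on a minority of libraries. Tagln3 (ENSRNOG00000059539) stood at 26.8 CPM in treated Nj 3 and between 0.533 and 1.70 CPM in the other treated libraries. Slc25a22 (ENSRNOG00000049944) stood at 8.43 CPM in treated jj 4, and LOC103690005 at 14.7 CPM in treated jj 5, each below 1 CPM in the other treated libraries. LOC100911881 stood at 4.15 and 4.26 CPM in treated jj 1 and treated jj 2, against 0.0520 CPM or less in the other treated libraries. Zmiz2 (ENSRNOG00000025923) stood at 0.235, 0.0968, 0.715, 0.257 and 0.235 CPM in treated jj pups, against 6.40, 0.176, 5.22, 3.90 and 0.143 CPM in treated Nj pups. These levels take high or low values by pup within a genotype, and whether the listings are copies that share reads with other genes was not tested.

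LOC103689971 (ENSRNOG00000045721), the gene called by DESeq2 and without treated jj 1, held 2, 54, 34, 43 and 118 counts in treated jj pups, against 8, 4, 10, 2 and 5 counts in treated Nj pups. In 4 of 5 treated jj pups it was above every treated Nj pup, and in treated jj 1 it matched the lowest. DESeq2 gave a log2 difference of 3.15.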
